A study of Homo sapiens with 8 samples.

Results

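The 10 genes described here are lung lineage transcription factors and genes of the surfactant system: NKX2-1, SFTA2, SFTPB, SFTPD, NAPSA, FOXA1, FOXA2, LAMP3, ABCA3 and HOPX. They were chosen by name from the 18244 genes with a probe set annotated to a single symbol, and each was read from the probe set with the highest mean over all 8 arrays. All 10 were found, on 22 probe sets, of which 12 were not chosen. RNA from 2 established human lung adenocarcinoma lines, HCC827, which carries an activating EGFR mutation, and A549, which does not, was hybridised to 3' expression arrays. Each line was grown in 3D and in 2D, with gefitinib or as a control, which makes 4 arrays per line and 1 array of each condition. Cells in 3D grew for 14 days on a collagen scaffold after 100000 had been seeded, and cells in 2D grew for 7 days on plastic from 200000. Gefitinib, an inhibitor of the EGFR kinase, was given at 1 µM, in 3D from day 11 for 3 days, and a start on day 4, in a sentence of the labels that again says 3D, was read as that of the 2D cultures. Control cultures received no inhibitor. Each EGFR genotype was represented by a single line, so line and mutation cannot be told apart, and the arrays of a line differ in condition and are not replicates.

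NKX2-1 is the homeodomain factor that specifies lung and thyroid from the foregut, and it stays on in the alveolar type 2 cells that make surfactant. FOXA1 and FOXA2 are forkhead factors that open chromatin in foregut epithelium and act with NKX2-1 on surfactant genes. Surfactant is a film of lipid and protein: SFTPB spreads the lipid, SFTPD is a secreted lectin of innate defence, NAPSA is an aspartic protease that helps process the SFTPB precursor, ABCA3 loads lipid into lamellar bodies, and LAMP3 is a membrane protein of those bodies. SFTA2 encodes a small secreted surfactant-associated protein, and HOPX is a homeodomain protein without DNA binding that marks alveolar type 1 cells and their precursors. In pathology NKX2-1 and NAPSA staining is used to recognise lung adenocarcinoma.

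The start-site windows of genes that the results below turn on are shown first. NKX2-1, SFTA2 and NAPSA were high together in HCC827, and ABCA3 was higher on the scaffold in both lines. Each window runs from 250 bases before to 50 after an annotated start, 300 bases in all, in RefSeq on GRCh38.p14, and windows were found for 8 of the 10 genes, 12 windows in all. Of these genes, NKX2-1 lies at chr14:36516397-36520232, SFTA2 at chr6:30931353-30932170, NAPSA at chr19:50358477-50369302 and ABCA3 at chr16:2275881-2340728. Capitals mark matches, on either strand, to CTCAAG or CTNNAG, core letters bound by NKX2-1, and to TGTTTAC or TGTTTNC, letters bound by forkhead factors. Every CTCAAG is also a CTNNAG, and every TGTTTAC also a TGTTTNC.
NKX2-1, the upstream start, chr14:36520183-36520482, minus strand: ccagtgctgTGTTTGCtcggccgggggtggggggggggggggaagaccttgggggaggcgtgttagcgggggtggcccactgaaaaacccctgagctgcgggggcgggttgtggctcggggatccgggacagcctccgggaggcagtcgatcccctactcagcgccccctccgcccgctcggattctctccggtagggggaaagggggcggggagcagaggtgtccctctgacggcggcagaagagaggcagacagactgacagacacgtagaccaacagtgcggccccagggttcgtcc
NKX2-1, the downstream start, chr14:36519507-36519806, minus strand: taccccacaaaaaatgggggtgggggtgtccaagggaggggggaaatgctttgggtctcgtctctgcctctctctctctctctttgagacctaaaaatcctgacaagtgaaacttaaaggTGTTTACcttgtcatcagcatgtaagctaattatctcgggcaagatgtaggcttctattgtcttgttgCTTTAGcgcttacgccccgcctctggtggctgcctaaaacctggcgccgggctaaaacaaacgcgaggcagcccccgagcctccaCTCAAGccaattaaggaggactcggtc
SFTA2, chr6:30932121-30932420, minus strand: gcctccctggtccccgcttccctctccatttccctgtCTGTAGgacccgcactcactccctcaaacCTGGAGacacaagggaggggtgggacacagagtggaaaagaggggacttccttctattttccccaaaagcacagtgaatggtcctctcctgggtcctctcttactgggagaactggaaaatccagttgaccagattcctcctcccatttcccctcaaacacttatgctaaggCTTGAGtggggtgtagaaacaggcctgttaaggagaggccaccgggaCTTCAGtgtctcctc
NAPSA, the upstream start, chr19:50369253-50369552, minus strand: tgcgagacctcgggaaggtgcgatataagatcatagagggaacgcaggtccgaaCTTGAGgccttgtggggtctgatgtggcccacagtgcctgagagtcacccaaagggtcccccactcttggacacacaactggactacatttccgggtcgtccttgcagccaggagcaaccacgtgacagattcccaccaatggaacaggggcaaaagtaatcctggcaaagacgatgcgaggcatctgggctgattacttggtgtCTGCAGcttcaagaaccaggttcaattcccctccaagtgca
ABCA3, chr16:2340679-2340978, minus strand: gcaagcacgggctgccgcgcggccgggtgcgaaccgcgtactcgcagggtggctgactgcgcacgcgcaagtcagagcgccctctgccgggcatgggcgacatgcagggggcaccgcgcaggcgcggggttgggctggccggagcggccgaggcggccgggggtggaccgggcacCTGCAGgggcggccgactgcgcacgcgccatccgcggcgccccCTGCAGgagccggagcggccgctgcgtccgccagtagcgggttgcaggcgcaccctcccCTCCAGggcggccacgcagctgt

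The downstream window of NKX2-1 holds CTCAAG starting 24 bases after the start and TGTTTAC starting at -130, and it was the only one of the 12 windows with TGTTTAC, which 3.42% of all 35116 windows of this length hold. CTCAAG stands in 4 of the 12 windows, those of NKX2-1 (downstream), SFTA2, NAPSA (upstream) and FOXA1, and in 12.4% of all windows. The looser CTNNAG was in 11 of the 12, against 74.9% of all windows, and TGTTTNC in 5, against 18%. The ABCA3 window has 3 CTNNAG matches and neither CTCAAG nor a forkhead match, with a GC content of 78.0%. These are matches of letters in a reference sequence, and binding was not measured.

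Array medians lay between 7.27 and 7.34 on the log2 scale, and the mean of the background control probe sets between 6.63 and 6.77. No detection call comes with the values, so a level under about the array median was not told apart from background. All 6 epithelial markers (EPCAM, CDH1 and 4 keratins) were above the median on all 8 arrays. Of markers of other cells, 2 of 8 fibroblast, 3 of 5 leukocyte and 3 of 5 endothelial genes exceeded the median on any array. Their summed linear signal was 753.1 to 961.1 in 3D and 799.2 to 1665 in 2D for fibroblast genes. It was 786.9 to 1507 in 3D and 804.2 to 1325 in 2D for leukocyte genes, and 598.7 to 788.7 in 3D and 580.7 to 619.4 in 2D for endothelial genes. Pan-leukocyte PTPRC (at most 6.11) and endothelial CDH5 (at most 6.72) stayed under the median on every array. The fibroblast genes that exceeded it were LUM (at most 9.93) and COL1A1 (7.54). Those of leukocytes were CD68 (at most 10.16), CD14 (8.30) and LYZ (8.14), and those of endothelium KDR (7.99), PECAM1 (7.63) and VWF (7.38). CD68 was above the median on all 8 arrays and CD14 on the 4 A549 arrays. The labels of the HCC827 2D pair are in doubt. DUSP6, a phosphatase induced by ERK signalling, stood at 8.16 with gefitinib against 11.48 in the control in HCC827 3D, but at 10.21 in the array labelled gefitinib against 6.57 in that labelled control in HCC827 2D. Results that use the treatment labels of those arrays are therefore given "as labelled".

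The first comparison asked how the genes differ between the EGFR-mutant and the EGFR wild-type line. NKX2-1, SFTA2 and NAPSA were many-fold higher in HCC827, LAMP3 and HOPX were also higher there, FOXA2 and ABCA3 were lower, and FOXA1 and SFTPB did not pass the threshold. Of the 9 members that could be tested, 5 were called higher and 2 lower at an adjusted p under 0.05. Over all 11926 tested genes 48.1% were called, 22% higher and 26.1% lower. A count over these members is no support for a difference, because NKX2-1, SFTA2, LAMP3 and HOPX passed the filter on low values only through the 4 HCC827 arrays and FOXA2 only through the 4 A549 arrays and so had to differ. SFTPD did not pass the filter. With no filter these 5 also passed, with limma adjusted p at most 0.0162. The members had been chosen with earlier results of these data known, so these p-values are no independent support. Where a gene was under the median on all arrays of 1 line, its difference is given as a bound, with that line set at its array medians. Such a bound holds for the chosen probe set only.

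**Figure D1:**
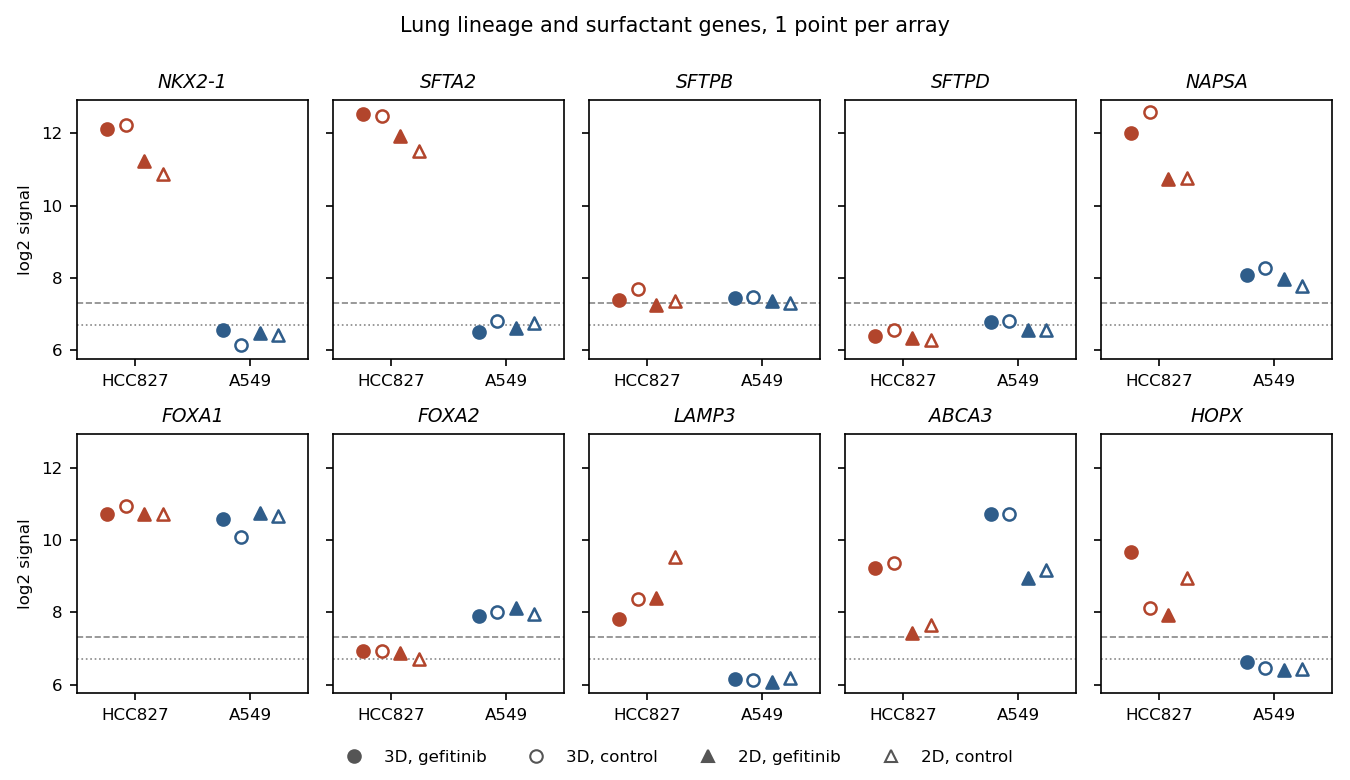
Log2 signal (vertical axis) of the 10 genes on the 8 arrays, HCC827 left of A549 in each panel; circles are 3D and triangles 2D cultures, filled symbols gefitinib and open symbols control, the dashed line is the mean array median and the dotted line the mean background. NKX2-1 lies between 10.88 and 12.23 in HCC827 and between 6.16 and 6.56 in A549, while SFTPB and SFTPD lie near the lines in both.

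Among the transcription factors, NKX2-1 read 12.12, 12.23, 11.23 and 10.88 in HCC827 (3D gefitinib, 3D control, 2D gefitinib, 2D control), against 6.56, 6.16, 6.47 and 6.43 in A549 in the same order. The lines do not overlap, as for 6 of the 9 tested members, 5 of which had passed the filter through 1 line, and for 32.6% of all tested genes, and each A549 value lies under the mean background of its own array (6.65 to 6.76 in A549). On the chosen probe set the difference, HCC827 minus A549, was at least log2 4.29. As measured it was 5.21 ± 0.13 (SE of the limma fit, adjusted p = 1.72e-04). Its other probe set gave 9.05, 9.38, 9.02 and 8.36 in HCC827 and 7.31, 7.32, 6.79 and 6.94 in A549, a difference of 1.86 on the same scale. The size of the NKX2-1 difference thus varied with the probe set, while its direction was the same.

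FOXA2 ran the other way. It read 6.92, 6.93, 6.88 and 6.70 in HCC827, against 7.91, 8.0, 8.12 and 7.94 in A549. All HCC827 values were under the array medians and all A549 values above them, so the difference has a bound of -0.69 and was -1.13 ± 0.08 as measured (limma adjusted p = 0.00144). FOXA1 was well above the median on every array. Its values were 10.71, 10.95, 10.73 and 10.72 in HCC827, against 10.57, 10.07, 10.75 and 10.65 in A549, which overlap, and the difference of 0.27 ± 0.12 missed the threshold (limma adjusted p = 0.129). Its other probe set, above the median on all 8 arrays, gave 0.02. The mean of the probe sets gave 0.14 (limma adjusted p = 0.171). On the chosen probe set FOXA1 passed after cyclic loess (0.41, limma adjusted p = 0.032) and after quantile normalization (0.39, 0.0447). Without both HCC827 2D arrays the comparison was of the 3D arrays only, and the spread came from A549 alone. There FOXA1 also passed (0.51, 0.00128). In 2D the lines differed by -0.02 with gefitinib and 0.07 in the control, as labelled. HOPX read 9.66, 8.12, 7.92 and 8.95 in HCC827 and 6.62, 6.46, 6.42 and 6.44 in A549. Every HCC827 value exceeded every A549 value, and HCC827 spread far more across its conditions (SD 0.80) than A549 (SD 0.09). The difference was at least 1.34 and, as measured, 2.18 ± 0.44 (limma adjusted p = 0.0182). It no longer passed without any 1 of the 4 A549 arrays (2.13 to 2.22, adjusted p 0.0846 to 0.0918). It was 1.53 without the HCC827 3D gefitinib or the HCC827 2D control array, and 2.82 without either of the other HCC827 arrays.

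Among the surfactant genes, SFTA2 read 12.53, 12.49, 11.94 and 11.52 in HCC827, against 6.52, 6.81, 6.61 and 6.76 in A549. All A549 values were under the array medians, and the difference was at least 4.8 and, as measured, 5.44 ± 0.11 (limma adjusted p = 1.45e-04). NAPSA read 12.002, 12.59, 10.73 and 10.78 in HCC827 and 8.09, 8.29, 7.98 and 7.79 in A549. Unlike NKX2-1 and SFTA2, NAPSA was above the array median in A549 too, and the difference was 3.49 ± 0.14 (limma adjusted p = 4.03e-04). Its other probe set gave 3.36 and was likewise highest on the HCC827 3D control array. ABCA3, the lipid transporter, was lower in HCC827. It read 9.21, 9.36, 7.42 and 7.65 there and 10.71, 10.73, 8.95 and 9.18 in A549. The lines overlap when the cultures are pooled but not within 3D or within 2D, where each HCC827 value lies under each A549 value. The share of all tested genes that separate in this way within a culture was not counted. The difference was -1.48 ± 0.09 (limma adjusted p = 8.87e-04), and -0.90 (0.0011) when its 3 probe sets were averaged.

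LAMP3 read 7.81, 8.38, 8.39 and 9.52 in HCC827, against 6.15, 6.12, 6.08 and 6.19 in A549. Each A549 value lies under the mean background of its own array. On the chosen probe set the difference was at least 1.2 and, as measured, 2.39 ± 0.12 (limma adjusted p = 5.73e-04). The other probe set of LAMP3, above the median on 1 array, gave 0.65, and the mean of the 2 gave 1.52. SFTPB and SFTPD, which encode surfactant proteins themselves, showed no such separation. SFTPB read 7.4, 7.71, 7.26 and 7.38 in HCC827 and 7.45, 7.47, 7.37 and 7.32 in A549, which overlap and lie close to the array medians. Its line difference was 0.03 ± 0.07 (limma adjusted p = 0.726). SFTPD read 6.41, 6.57, 6.34 and 6.28 in HCC827 and 6.78, 6.81, 6.57 and 6.58 in A549, under the median on all 8 arrays. With no filter on low values it was called lower in HCC827, at -0.28 (limma adjusted p = 0.0197), a difference between levels near background.

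An exact permutation of the line labels over the arrays (two-sided, 4 against 4) gave 0.0286 for NAPSA, the smallest value that 70 splits allow, and 0.0878 after adjustment over all tested genes. It was 0.171 for ABCA3, 0.114 for FOXA1 and 0.829 for SFTPB, also by exact permutation. The splits mixed the cultures and the treatments, and so took the unlike arrays of a line as exchangeable. The value for ABCA3 therefore cannot decide on its line difference, because culture moved this gene in both lines. Within either culture, each HCC827 value of ABCA3 lay under each A549 value, a separation whose share over all tested genes was not counted.

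Other gene lists are given by their counts, which are to be read against the 48.1% of all tested genes called between the lines, 22% higher and 26.1% lower. Of 12 tested genes of the surfactant system and type 2 cells, 5 were higher and 1 lower in HCC827, a share of 50.0% that is close to that of all genes. Of the 5, 2 had passed the filter through HCC827 alone, and the lower one through A549 alone. LPCAT1, which remodels surfactant phosphatidylcholine, differed by 2.20 ± 0.18 and the protease CTSH by 2.06 ± 0.17 (limma adjusted p = 0.00168 and 0.00184). The kinase LRRK2 had a bound of -0.91. SFTA3, a neighbour of NKX2-1 on chromosome 14, read 11.69, 11.00, 10.27 and 9.41 in HCC827 and 5.89, 6.0, 6.17 and 6.04 in A549, a difference of at least 3.28.

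Of 9 tested genes within the NKX2-1 neighbourhood on 14q13, 6 were higher and 0 lower in HCC827, where SFTA3 had passed the filter through HCC827 alone. The others included the chromatin factor BAZ1A (1.36 ± 0.11), the NF-kB inhibitor NFKBIA (1.27 ± 0.17) and the transcription factor PAX9 (1.23 ± 0.20), with limma adjusted p = 0.00191, 0.00641 and 0.0104.

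Among 14 other lung and foregut factors tested, 2 were higher and 5 lower in HCC827, also 50.0%. Both of the higher and 3 of the lower factors had passed the filter through 1 line. HHEX, CEBPA and FOXA3, the third factor of the FOXA family, were under the array median on all 4 HCC827 arrays and above it on all 4 A549 arrays, with bounds of -2.68, -1.46 and -1.08. SOX9 differed by -2.35 ± 0.29 (limma adjusted p = 0.00482).

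Of 19 genes of stomach, gut and liver, 11 were not tested, and of the 8 tested 7 were lower and 1 higher in HCC827. All 7 had passed the filter through A549 alone and so had to be lower. CPS1 of the urea cycle had a bound of -4.23, the gastric trefoil peptide TFF1 of -4.28 and the plasma protein APOH of -3.02, whereas SERPINA1, above the median in both lines, was higher by 1.44 ± 0.18 (limma adjusted p = 0.00519).

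Alveolar type 1 genes were 5 higher and 1 lower of 9. They included TSPAN8 (-2.52 ± 0.08), the sodium channel subunit SCNN1A (2.08 ± 0.18), VEGFA (1.90 ± 0.40) and the caveolar CAV2 (1.03 ± 0.10), with limma adjusted p at most 0.0199. Airway genes were 2 higher and 3 lower of 8. The protease inhibitor SLPI differed by -3.52 ± 0.10, WFDC2 by 2.23 ± 0.17 and LCN2 by 1.58 ± 0.16 (limma adjusted p at most 0.00285), and BPIFB1 had a bound of -2.30.

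**Figure D2:**
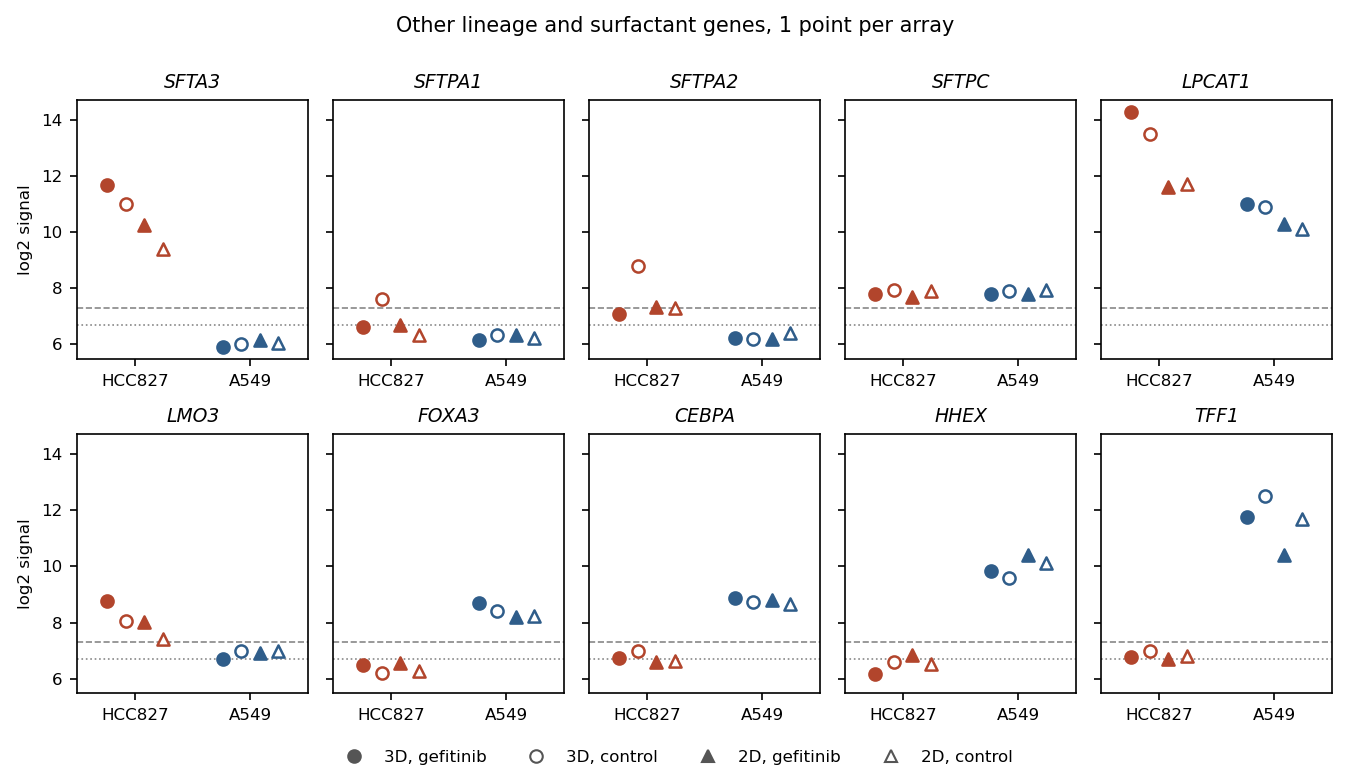
Log2 signal of 10 other lineage and surfactant genes on the 8 arrays, drawn as in the plot of the members. SFTA3 lies between 9.41 and 11.69 in HCC827 and between 5.89 and 6.17 in A549, SFTPA2 reaches 8.81 on the HCC827 3D control array, and TFF1 is above the dashed line in A549 alone.

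The classical surfactant protein genes outside the members were looked at after their values had been seen. SFTPA2 read 7.09, 8.81, 7.32 and 7.29 in HCC827, against 6.23, 6.18, 6.18 and 6.42 in A549. Its paralog SFTPA1 read 6.64, 7.63, 6.70 and 6.34 in HCC827 and 6.15, 6.35, 6.32 and 6.24 in A549. Both were highest on the HCC827 3D control array. The genes are nearly identical in sequence, so their signals may not be separate. SFTPC lay between 7.70 and 7.93 on all 8 arrays, with no separation of the lines.

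SFTPB was highest on the same array. The 4 SFTPB probe sets that were not chosen lay under or near the median, and 2 of them were also highest there: 1 read 6.62, 7.23, 6.36 and 6.26 in HCC827 and 6.08, 6.47, 6.33 and 6.32 in A549, and another 7.23, 7.45, 7.12 and 6.90 in HCC827 and 7.06, 7.17, 7.08 and 7.07 in A549. The remaining 2 were highest in A549, 1 at 5.93 in 3D with gefitinib and the other at 6.77 in the 3D control. On the HCC827 3D control array they read 5.83 and 6.55. A further probe set, annotated to both SFTPB and EDNRB and so left out of the fits, read 7.44, 8.37, 7.31 and 7.07 in HCC827 and 7.23, 7.36, 7.23 and 7.13 in A549. EDNRB on its own probe set stayed between 5.74 and 6.02. These are values of a single array each, with no replicate.

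The second comparison asked which of the genes differ between the 3D scaffold and 2D plastic. In HCC827, NKX2-1, SFTA2, NAPSA and ABCA3 were higher in 3D and LAMP3 was lower. In A549 only ABCA3 passed the threshold among the members. By limma, 4 of 9 tested members were higher and 1 lower in HCC827, where 33.4% of all tested genes were called, 19.7% higher and 13.7% lower. In A549 1 was higher and 0 lower, where 22.3% were called, 16.3% higher and 6.01% lower. The members' median was 0.46 in HCC827, against 0.08 over all genes, and 0.00 in A549, against 0.13. After cyclic loess the median of all genes in A549 was -0.01, in place of 0.13, and 52.5% of the calls were higher in place of 73.1%.

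ABCA3 rose on the scaffold in both lines. In HCC827 it read 9.21 and 9.36 in 3D (gefitinib and control), against 7.42 and 7.65 in 2D, a difference of 1.75 ± 0.13 (limma adjusted p = 0.0106). In A549 it read 10.71 and 10.73 in 3D, against 8.95 and 9.18 in 2D, a difference of 1.66 ± 0.13 (limma adjusted p = 0.0177). Within each line both 3D arrays stood above both 2D arrays, as they did for 40% of all tested genes in HCC827 and 51.5% in A549. The values depend on the probe set: another of its probe sets gave 0.65 in HCC827 and 0.79 in A549, the last, under the median on all arrays, 0.20 in HCC827 and 0.06 in A549. The mean of the 3 gave 0.87 in HCC827 (limma adjusted p = 0.00931) and 0.83 in A549 (0.0181).

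NAPSA read 12.002 and 12.59 in HCC827 3D, against 10.73 and 10.78 in HCC827 2D. Its difference was 1.55 ± 0.20 (limma adjusted p = 0.0134), and its other probe set gave 1.47. In A549 the difference was 0.31 ± 0.20 (limma adjusted p = 0.308). NKX2-1 read 12.12 and 12.23 in HCC827 3D, against 11.23 and 10.88 in HCC827 2D, a difference of 1.12 ± 0.18 (limma adjusted p = 0.0178). Its other probe set gave 0.52 in HCC827 and 0.45 in A549. On the chosen probe set NKX2-1 stood near background in both A549 cultures, at -0.09 ± 0.18 (limma adjusted p = 0.741). SFTA2 read 12.53 and 12.49 in HCC827 3D, against 11.94 and 11.52 in HCC827 2D, a difference of 0.78 ± 0.15 (limma adjusted p = 0.0245), and -0.02 ± 0.15 in A549 (0.933). Both 3D arrays were above both 2D arrays for each of these genes in HCC827.

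LAMP3 read 7.81 and 8.38 in HCC827 3D, against 8.39 and 9.52 in HCC827 2D. The highest 3D and the lowest 2D value were almost level, and the difference was -0.86 ± 0.16 (limma adjusted p = 0.0242). It missed the threshold when treatment was left out of the fit (-0.86, adjusted p = 0.0741). Its other probe set, mostly under the median, gave -0.79. SFTPB (0.23 ± 0.10), FOXA1 (0.11 ± 0.16) and FOXA2 (0.14 ± 0.12) did not pass in HCC827 (limma adjusted p = 0.146, 0.648 and 0.412), and FOXA2 turned to -0.039 after cyclic loess and FOXA1 to -0.035 with the mean of its probe sets. HOPX read 9.66 and 8.12 in HCC827 3D and 7.92 and 8.95 in HCC827 2D. Its mean difference of 0.46 ± 0.62 (limma adjusted p = 0.603) joined 1.74 in the gefitinib pair and -0.83 in the control pair, as labelled. In A549 the members other than ABCA3 had limma adjusted p of 0.169 (FOXA1) or more.

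**Figure D3:**
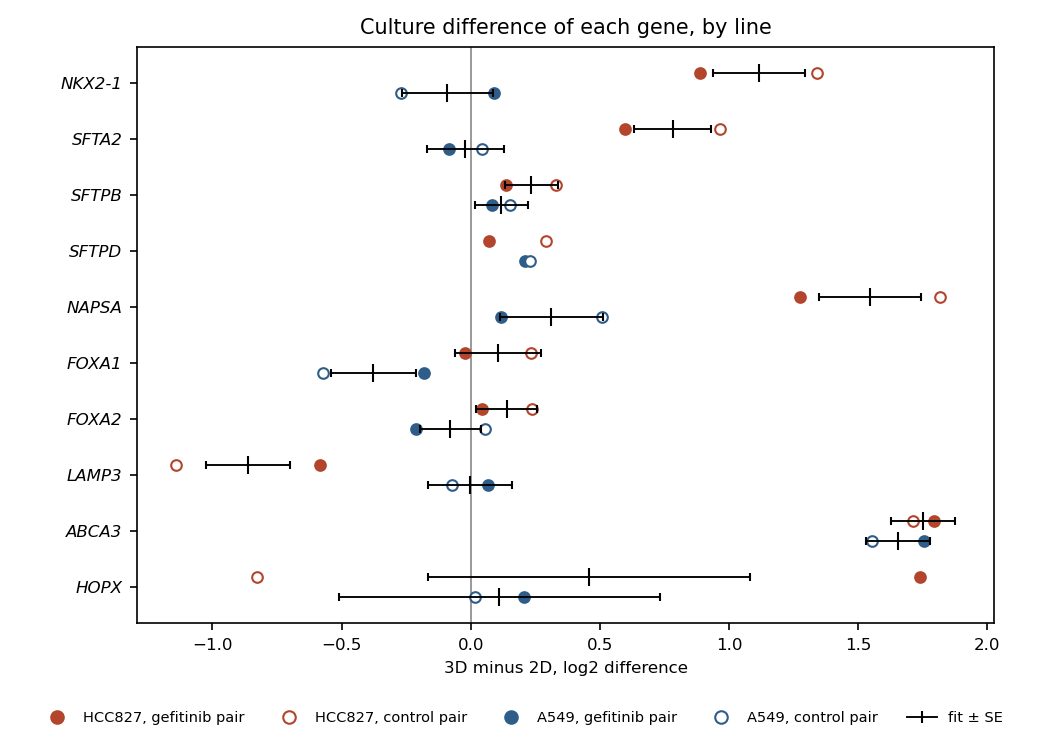
Log2 difference 3D minus 2D (horizontal axis) of each gene, HCC827 above A549 in each row; filled circles are the gefitinib pair, open circles the control pair, and black bars the limma estimate ± SE, which SFTPD lacks because it was not tested. ABCA3 lies between 1.55 and 1.79 in all 4 pairs, and NKX2-1, SFTA2 and NAPSA lie above 0.59 in both HCC827 pairs.

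Whether the culture difference itself differed between the lines was tested as an interaction, HCC827 minus A549. It stood at 1.2 ± 0.25 for NKX2-1, 1.24 ± 0.28 for NAPSA, 0.80 ± 0.21 for SFTA2, -0.86 ± 0.23 for LAMP3 and 0.10 ± 0.18 for ABCA3. None passed the threshold (limma adjusted p = 0.209, 0.223, 0.241, 0.247 and 0.852). The NKX2-1 value depends on the probe set: the mean of its probe sets gave 0.64 ± 0.29 (limma adjusted p = 0.390). Its other probe set was higher in 3D by 0.52 in HCC827 and 0.45 in A549. By limma 0 of 9 members and 0 of 11926 genes were called (0%), with 1696 genes at an unadjusted p under 0.05. A response confined to HCC827 is therefore not shown. Without any 1 HCC827 array, the spread came from A549 alone, and up to 4533 of all tested genes were called. In these fits 5 to 6 members passed. These included NKX2-1 (0.98 to 1.43), NAPSA (0.96 to 1.51), SFTA2 (0.62 to 0.99) and LAMP3 (-1.14 to -0.58), of which all but NAPSA lie under the array medians in A549, and HOPX with a sign that depended on the array left out (-0.94 or 1.63). Without any 1 A549 array 0 passed. When treatment was left out of the fit, 201 genes were called but again 0 members.

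The means over both HCC827 2D arrays do not change if their treatment labels are exchanged. Yet all standard errors contain the opposition of the HCC827 pairs. Without any 1 of the 4 A549 arrays, where the spread came from HCC827 alone, 0 members were called for culture in either line, with the HCC827 differences unchanged. Without any 1 HCC827 array, 6 to 7 were called in HCC827 and 3 in A549. In those fits up to 7694 of all tested genes were called for culture in HCC827 and up to 7652 in A549. RNA integrity moved with culture. The 3' minus 5' difference of the actin control probe sets was 2.64 and 2.34 in HCC827 3D (gefitinib and control), against -0.10 and -0.09 in HCC827 2D, and 1.74 and 1.67 in A549 3D, against -0.14 and -0.05 in A549 2D. Over all arrays it averaged 2.10 ± 0.47 in 3D and -0.10 ± 0.04 in 2D (SD, n = 4 each; exact permutation, two-sided, p = 0.0286, which 4 against 4 cannot go below). The kits for RNA extraction also differed between the cultures, as did the days of growth. The part of these in the culture differences was not tested, and culture and extraction cannot be told apart. In bulk RNA, more cells with a transcript and more transcript per cell cannot be told apart either.

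Of the 12 other surfactant and type 2 genes tested, 4 were higher and 1 lower in 3D in HCC827, against 33.4% of all tested genes called, and 1 was higher and 0 lower in A549, against 22.3%. In HCC827 LPCAT1 differed by 2.23 ± 0.25, FABP5, a fatty acid carrier, by -1.85 ± 0.41, SFTA3 by 1.5 ± 0.12 and the mucin MUC1 by 1.30 ± 0.17 (limma adjusted p at most 0.0333). In A549 it was MUC1 that rose, by 1.71 ± 0.17 (limma adjusted p = 0.0178). Of the 14 lineage factors, 4 were higher in HCC827 and 2 in A549, with 0 lower in either. SOX2 was higher by 1.51 ± 0.11 in HCC827 and 0.88 ± 0.11 in A549, and FOXP1 by 1.08 ± 0.12 in HCC827 and 1.05 ± 0.12 in A549. LMO3 (0.71 ± 0.11) and FOXP4 (0.69 ± 0.12) were called in HCC827 (limma adjusted p at most 0.0208 for these 6 values). These lists were fixed with earlier results of these data known.

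The third comparison asked how the genes respond to gefitinib. Averaged over both cultures, 0 of 9 members and 0 of 11926 genes (0%) were called in HCC827 as labelled, and likewise 0 and 0 (0%) in A549. In HCC827 this average joins pairs that were opposed for DUSP6 (-3.32 in 3D and 3.64 in 2D, mean 0.16). The residual spread of the fit holds the same opposition. A count of 0 thus cannot show that HCC827 lacked a response, and no fit was run with the 2D labels exchanged. At an unadjusted p under 0.05, limma gave 487 genes in HCC827 and 86 in A549. LAMP3 stood at -0.85 ± 0.16 in HCC827 as labelled (limma adjusted p = 0.926) and HOPX at 0.25 ± 0.62. With the sign of the HCC827 2D pair turned, the means of the pairs would be 0.28 for LAMP3 and 1.28 for HOPX, a description added after the values were seen and not tested. FOXA1 stood at 0.30 ± 0.16 in A549. NKX2-1 stood at 0.12 ± 0.18 in HCC827 and 0.22 ± 0.18 in A549, neither past the threshold.

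Single pairs of arrays, without replicate error, showed where the members moved by log2 1 or more. In HCC827 3D this was HOPX alone among the 9 tested members. Over all tested genes 3.95% moved by as much, 0.797% higher and 3.15% lower. HOPX read 9.66 with gefitinib against 8.12 in the control, a difference of 1.53, and its other 2 probe sets gave 1.94 and 2.02. In HCC827 2D, as labelled, HOPX read 7.92 in the gefitinib array against 8.95 in the control array, a difference of -1.03, with -1.0 and -0.89 on the other probe sets. The HOPX differences thus opposed each other in the 2 cultures, as did those of DUSP6, at -3.32 in 3D and 3.64 in 2D.

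LAMP3 was lower with gefitinib in both HCC827 pairs, with differences of -0.57 in 3D and -1.13 in 2D as labelled. In 2D LAMP3 and HOPX were the 2 members at or past log2 1, both lower as labelled. Of all tested genes 3.97% moved as far there, 2.36% higher and 1.62% lower. If the labels of that pair are exchanged, LAMP3 (1.13) and HOPX (1.03) are both higher and the shares change places. NAPSA stood at -0.59 in HCC827 3D and at -0.05 in 2D. The other members moved by less than log2 0.5 in either HCC827 pair, given here for 3D and then 2D. NKX2-1 stood at -0.11 and 0.34, SFTA2 at 0.05 and 0.42, FOXA1 at -0.24 and 0.02, and FOXA2 at -0.01 and 0.18. SFTPB stood at -0.31 and -0.12, SFTPD at -0.16 and 0.05, and ABCA3 at -0.15 and -0.23. In A549 no member reached log2 0.5 in either culture, and 1 gene in 3D (0.00839%) and 3 in 2D (0.0252%) of all tested reached log2 1, those in 2D 0.00839% higher and 0.0168% lower.

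A limma fit without both HCC827 2D arrays has residual spread in the A549 arrays only. It called HOPX, NAPSA and LAMP3 in HCC827 3D, 3 of the 9 members, where 27.2% of 11804 tested genes were called. HOPX and LAMP3 lie under the array medians in A549, and for HOPX the SD over conditions was 0.80 in HCC827 and 0.09 in A549, so these calls are not support for a change.

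**Figure D4:**
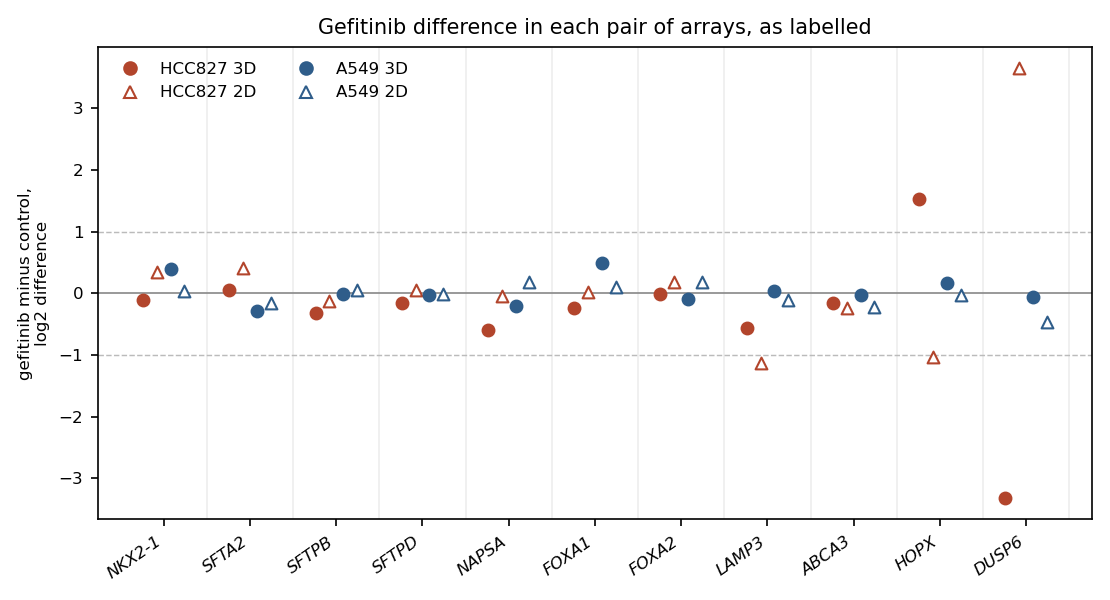
Log2 difference gefitinib minus control (vertical axis) in each of the 4 pairs of arrays for the 10 genes and for DUSP6, as labelled; filled circles are 3D and open triangles 2D, HCC827 left of A549, and dashed lines mark log2 1 either way. HOPX stands at 1.53 in HCC827 3D and at -1.03 in HCC827 2D, and DUSP6 at -3.32 and 3.64.

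Likeness of pattern was described by Pearson's r over the 8 arrays, among genes with an SD of at least 1. The arrays form 2 clusters, the lines, and r reflects that separation first. Nearest to NKX2-1 among 887 genes were SLC2A10 (r = 0.997), SFTA2 (0.996), LANCL2 (0.996), CRYBG1 (0.996) and ST14 (0.995). NAPSA was at rank 48. The genes nearest to LAMP3 were COXFA4L3 (0.995), ISG15 (0.991), SLAMF7 (0.989), CTHRC1 (0.988) and IFI44L (0.986), of which ISG15 and IFI44L are known as interferon-induced. FOXA2 lay nearest to GNG11 (0.994), NTS, MLLT11, HFE and LINC00473 (each 0.992), all higher in A549. The nearest to SFTPB reached only 0.821 (ZNF395), then INSR (0.797), EGLN3 (0.794), B4GALNT4 (0.783) and CCL20 (0.782), and SFTPB itself had an SD of 0.14. Between members, r was 0.980 for NKX2-1 with NAPSA and -0.961 for NKX2-1 with FOXA2, again with the lines apart.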

How the data were processed

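The authors deposited a table of log2 signal for 49495 probe sets on 8 arrays, summarised by RMA (robust multi-array average) with R 3.2.1 named in the submitters' processing notes. The chip definition and genome build are not given in the sources used here. Per the labels, scaffolds were frozen and broken up with beads (5 min, 50 Hz) before a micro kit, 2D cells went through a mini kit, and 100 ng of RNA was labelled. The number of arrays limits precision. GEO's platform annotation gave 1 symbol for 45278 probe sets, updated through gene IDs to RefSeq (GRCh38.p14). Another 1333 with several symbols were left out. A gene was represented by its brightest probe set on average. Testing took in the 11926 of 18244 genes that exceeded the array median on at least 2 arrays; the other 6318, SFTPD among them, were not tested.

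Differences were fitted with limma 3.58.1 in R 4.3.3 (line, culture, treatment, line by culture, line by treatment, empirical Bayes with a variance trend), with two-sided p-values adjusted by Benjamini-Hochberg over all tested genes and a threshold of 0.05. The 2 residual degrees of freedom, with 2.36 from the prior, come from the change of the gefitinib difference between the cultures of a line, so p-values measure that spread and not the spread between separate cultures of one condition. The fit was also run on simulated arrays, with independent noise of the same size for every gene and no opposed HCC827 2D pair. That run therefore does not cover the spread of these data. Members and lists were chosen with earlier results of these data known. Of other genes, the text names up to 4 called genes of a list with the largest differences, the 5 nearest by correlation, and genes stated as chosen after their values were seen. Of the 127 list genes 120 were measured. Alternatives changed the filter, the probe set, the normalization, the model, the variance prior and the arrays used.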

Additional observations from a re-analysis of the deposited data

Results flagged for a closer look

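HOPX moved in opposite directions with gefitinib in the HCC827 cultures, by 1.53 in 3D and by -1.03 in 2D as labelled; if the labels of the 2D pair are exchanged, both are positive. With 1 array per condition the difference between the cultures was not tested. SFTA2 was higher with gefitinib in both HCC827 pairs as labelled (mean 0.23, or -0.18 with the sign of the 2D pair turned) and lower in both A549 pairs (mean -0.22). That difference between the lines was not tested, and neither mean passed the threshold.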

How the results depend on the processing

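No paired analysis was possible because each condition has 1 array and the labels give no replicate numbers. The additive fit gave only the line comparison, the fit without treatment no gefitinib values, and the fit without both HCC827 2D arrays no culture difference in HCC827 and no culture by line. SFTPB was not tested with the probe set of largest variance or with the mean of the probe sets.

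Genes called for culture in A549 numbered 2665, against 4669 with the probe set of largest variance, 4082 without a treatment term and 7626 without both HCC827 2D arrays, where 3 members were called in place of 1. Culture by line gave 201 genes without a treatment term in place of 0. Without both HCC827 2D arrays gefitinib in HCC827 gave 3207 genes and 3 members, and gefitinib in A549 2 genes, in place of 0 each. No other alternative of those run moved a count of calls by over 1.5 times, apart from leaving out single arrays.

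With all arrays or without both HCC827 2D arrays, the signs that turned belonged to values that did not pass. With the mean of the probe sets, FOXA1 for culture in HCC827 was -0.035 and NKX2-1 for culture in A549 0.18. After cyclic loess, FOXA2 for culture in HCC827 was -0.039, SFTPB and HOPX for culture in A549 -0.023 and -0.033, and FOXA1 for gefitinib in HCC827 0.038. After quantile normalization, culture in A549 was -0.021 for SFTPB and 0.078 for LAMP3, and gefitinib was 0.0035 for FOXA1 in HCC827 and 0 for LAMP3 in A549. Without both HCC827 2D arrays, gefitinib in HCC827 was -0.11 for NKX2-1 and -0.014 for FOXA2.

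Leaving out each array in turn gave 1780 to 8557 genes for line and 6 to 8 members, 0 to 7694 and 0 to 7 for culture in HCC827, 0 to 7652 and 0 to 3 for culture in A549, and 0 to 4533 and 0 to 6 for culture by line. It gave 0 to 3253 genes and 0 to 3 members for gefitinib in HCC827, and 0 to 2 genes and 0 members in A549. The low ends arose without an A549 array, apart from gefitinib in A549. Values whose sign turned ranged as follows, and those of HOPX in HCC827 and by line passed on both sides of 0 without single HCC827 arrays. For line, SFTPB was -0.015 to 0.083. For culture in HCC827, HOPX was -0.83 to 1.74 and FOXA1 -0.021 to 0.23. For culture in A549, NKX2-1 was -0.27 to 0.089, SFTA2 -0.085 to 0.0445, FOXA2 -0.21 to 0.056 and LAMP3 -0.071 to 0.067. For culture by line, HOPX was -0.94 to 1.63 and ABCA3 -0.004 to 0.20. For gefitinib in HCC827, HOPX was -1.03 to 1.53, NKX2-1 -0.11 to 0.34, FOXA1 -0.24 to 0.015 and FOXA2 -0.014 to 0.18. For gefitinib in A549, NAPSA was -0.20 to 0.19, FOXA2 -0.088 to 0.18, HOPX -0.022 to 0.17, LAMP3 -0.10 to 0.034 and SFTPB -0.018 to 0.053. The cause of these changes was not tested. Signals near the array median, as for SFTPB and SFTPD, were not told apart from background.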
